A study of Mus musculus with 6 samples.

Results

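The genes of fatty acid oxidation, of the pyruvate dehydrogenase complex and of the tricarboxylic acid (TCA) cycle were followed in mouse mesenteric arteries with and without beta1 integrin in smooth muscle. The list named 34 genes, and a probe set, which is the group of array probes read out as 1 value, was counted when a listed gene was its only symbol. This gave 66 of 45037 probe sets and 33 of the 34 genes. Cpt1b is not analysed here, because its probe set carries 3 symbols. The rule uses gene symbols and no measured value.

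Total RNA from 1 mouse was hybridised to each array. Control mice 30, 74 and 75 carried loxP-flanked beta1 integrin alleles and were Cre negative. Knockout mice 72, 73 and 86 carried the same floxed alleles and were sm22alphaCRE positive, which places Cre under the promoter of a smooth muscle gene. All 6 mice had a mixed background that included FVB, SVJ129 and C57BL/6, were given tamoxifen daily (1 mg, 14 days, starting at 5 weeks) and were sampled when aged 7 weeks. The labels say that adipose and lymph tissue was cleared from the vessels. No control carried Cre, so the presence of Cre and the loss of the integrin cannot be told apart. The titles mark mouse 86 as female and the others as male, and Xist read 11.83 on the log2 scale in knockout 86 and 5.29 to 6.09 elsewhere. Nothing in the labels gives litters or days, so p-values measure the spread between these 6 mice, and 3 arrays a group limit the precision.

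Fatty acids enter mitochondria on carnitine and are shortened there by a repeating sequence of dehydrogenation, hydration, dehydrogenation and thiolysis. Pyruvate from glucose enters through the pyruvate dehydrogenase complex. Both routes deliver acetyl-CoA to the TCA cycle, whose electrons feed the respiratory chain. Brown fat and heart are rich in these enzymes, and the genes are known targets of PPAR nuclear receptors, oestrogen-related receptors and the PGC-1 coactivators, which act at sites built from the half-site AGGTCA.

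RefSeq promoter windows, from 250 bases before to 50 bases after a start site, matched 30 of the 34 genes in build GRCm38.p6. A search of 10 motifs on both strands covered the windows of 27025 genes, and a gene counted when any of its windows held the letters. The GC box GGGCGG stood in 23 of the 30 members and in 38.2% of all genes. The TATA box TATAAA stood in 0 of 30 and in 15.7% of all genes. AGGTCA stood in 8 (18.1% of all genes), and the longer AAGGTCA, which contains it, in 2 (5.38%). TCAAGGTCA, longer again, and the direct repeat of 2 half-sites spaced by 1 base stood in 0 members and in 0.466% and 0.0481% of all genes. The NRF1 motif GCGCATGCG stood in 3 members (1.95%), the ETS motif CCGGAAG in 5 (9.93%), the cyclic AMP motif TGACGTCA in 2 (2.03%), and the CArG box of smooth muscle promoters in 0 (1.81%). A match is a description of letters and not a binding site, and an absent match concerns this window alone.

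The windows of Hadhb and Acadm are printed because one holds GC boxes beside a divergent neighbour and the other holds a half-site. Hadhb, on the plus strand at chr5:30155003-30155302, has 4 GC boxes, in capitals, and its start site lies 273 bases from that of Hadha, which is read in the opposite direction. Their windows overlap by 228 bases, so the genes for both subunits of the trifunctional protein are neighbours transcribed away from each other. Acadm, on the minus strand at chr3:153944594-153944893, has 1 half-site, in capitals and on the reverse strand, and no GC box.
Hadhb: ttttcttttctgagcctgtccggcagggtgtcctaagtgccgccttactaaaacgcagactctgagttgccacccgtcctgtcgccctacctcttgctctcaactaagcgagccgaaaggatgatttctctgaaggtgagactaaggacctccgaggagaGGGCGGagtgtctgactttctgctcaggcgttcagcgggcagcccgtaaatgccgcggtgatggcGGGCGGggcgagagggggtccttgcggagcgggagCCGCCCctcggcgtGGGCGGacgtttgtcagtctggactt
Acadm: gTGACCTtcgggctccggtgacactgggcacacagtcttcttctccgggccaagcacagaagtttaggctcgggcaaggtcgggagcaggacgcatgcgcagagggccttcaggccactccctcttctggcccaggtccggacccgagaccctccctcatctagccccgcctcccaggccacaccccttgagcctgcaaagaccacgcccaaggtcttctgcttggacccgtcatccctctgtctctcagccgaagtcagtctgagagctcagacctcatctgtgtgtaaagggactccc

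Intensities were taken as log2(intensity + 1) and quantile normalized, and probe sets with a mean under 6.50 were left out. Each gene was read from its probe set with the highest mean, which gave 10654 genes, and all 33 members passed. A gene was called when its adjusted p in limma was under 0.05. Differences are knockout minus control on this log2 scale, which understates changes of dim genes.

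In its brightest probe set the targeted gene was lower in every knockout. Itgb1, which encodes beta1 integrin, stood at 11.80, 11.04 and 11.20 in controls 30, 74 and 75 and at 10.51, 10.56 and 10.76 in knockouts 72, 73 and 86, with no overlap. The difference of -0.73 (SE 0.22, 60.1% of control) was not called (limma adjusted p = 0.127), and the exact permutation p was 0.1, the smallest that 3 arrays against 3 allow. Itgb1 was called with the adipocyte covariate described further on (-1.02, adjusted p = 0.0226) and with array weights (-0.78, adjusted p = 0.0314). The array has 6 Itgb1 probe sets, 3 of them past the filter, and array values are given for the brightest alone. The position of its probes against the loxP sites was not analysed here.

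All 33 enzyme genes had a lower mean in knockout than in control arteries, with 50.6% to 99.5% of the control level, and 0 of them were called. The 50.6% is that of Ehhadh, which passed the filter only with control 74, its highest array, so its direction is tied to the filter. The next lowest was Eci1, at 54.3%. Among all genes 2.42% were called in either direction and 0.657% were called lower, while 56.9% had a difference below 0. The median difference was -0.43 over the members, 74.2% of control, and -0.05 over all genes. At an unadjusted p under 0.05, 8 of 33 members were lower, beside 11.5% of all genes. All 3 knockouts lay below all 3 controls in 10 of 33 members, 30.3%, beside 15.1% of all genes. The lowest adjusted p among members was 0.145, for Acaa2. Whole arteries were measured, so fewer cells of a type and less RNA per cell cannot be told apart.

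Much of this difference sat in 1 control array. Control 74 was the highest of the 6 arrays in 32 of 33 members, beside 24.6% of all genes, and the exception was Cpt1a. Its excess over the mean of controls 30 and 75 had a median of 0.64 (1.55-fold) over the members and of 0.0056 over all genes. Without control 74, 32 members were tested, because Ehhadh passed the filter only with that array. Their median difference was -0.20 (86.9% of control) beside -0.04 over all genes, and 28 of 32 lay below 0 beside 55.6% of all genes. Again 0 members were called, where 1.01% of all genes were called lower and 2.69% in either direction. At an unadjusted p under 0.05, 2 of 32 were lower, Acadm and Acaa2, beside 12.8% of all genes. Control 74 was the highest array in all 10 genes whose groups did not overlap, so leaving it out could not end that lack of overlap. Without it the knockouts lay below both other controls in 10 of 32 members, 31.2%, beside 24.3% of all genes.

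**Figure D1:**
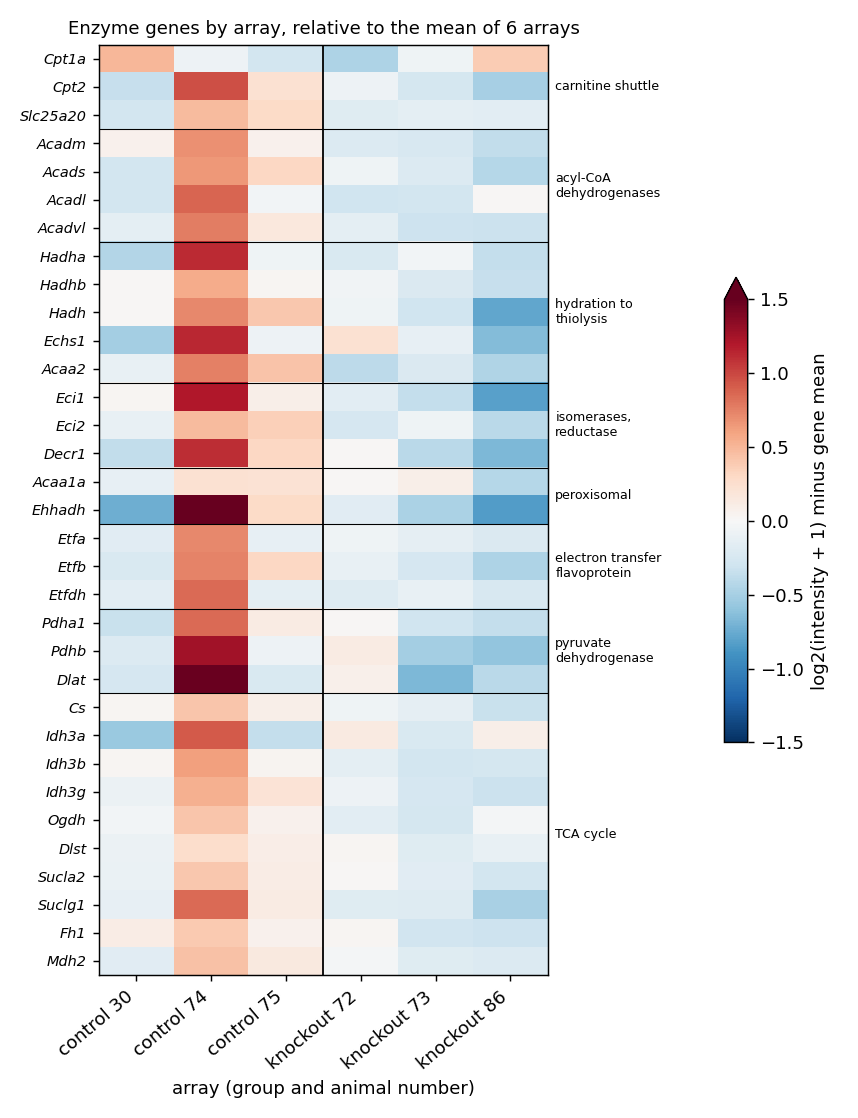
Each row is 1 of the 33 enzyme genes, grouped by role, and each column is 1 array; colour is log2(intensity + 1) minus the gene's mean over the 6 arrays, with the scale stopped at 1.5. Control 74 is the highest array in 32 rows and knockout 86 the lowest in 24.

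The 3 controls did not form a tight group. As a median deviation from each gene's mean, the members stood at -0.15 in control 30, 0.72 in control 74 and 0.10 in control 75. Knockouts 72, 73 and 86 stood at -0.08, -0.23 and -0.36. Control 30 thus lay below knockout 72, and the groups overlapped. Control 30 was above all 3 knockouts in 11 of 33 members, near the 33.4% of all genes. Control 75 was above all 3 knockouts in 24 of 33, beside 41.2%, and above control 30 in 31 of 33, beside 59.1%. Knockout 86, the female, was the lowest of 6 arrays in 24 of 33, beside 25.1%. The standard deviation was larger among controls than among knockouts in 29 of 33 members, beside 61.6% of all genes, with medians of 0.47 and 0.17.

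**Figure D2:**
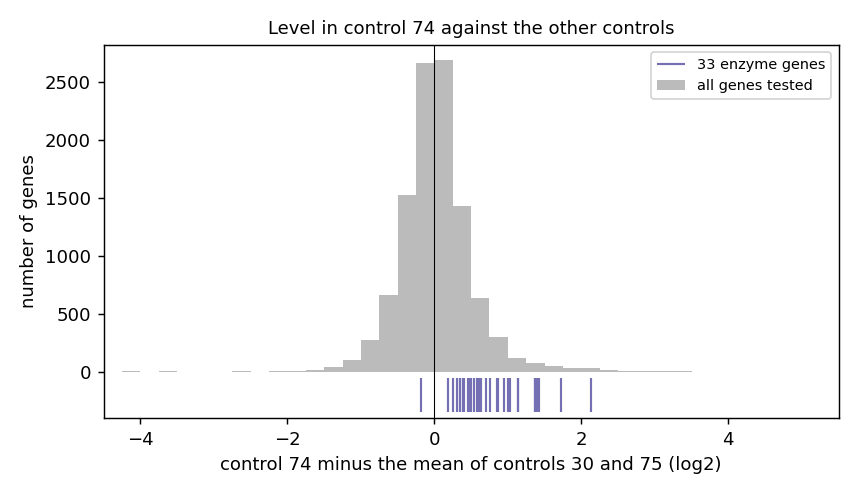
The grey bars count all 10654 genes by their log2 level in control 74 minus the mean of controls 30 and 75, and the ticks below mark the 33 enzyme genes. The ticks run from -0.18 to 2.13 and their median is 0.64, to the right of the bulk of genes at 0.0056. The tick at 2.13 is Ehhadh, which passed the filter only with control 74.

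On average the markers of white fat moved with these genes, and those of brown fat were mixed. The mean over 13 white adipocyte markers was 9.67, 11.59 and 11.22 in controls 30, 74 and 75 and 10.36, 10.25 and 9.60 in knockouts 72, 73 and 86. It was highest in controls 74 and 75 and lowest in knockout 86, as were the enzymes. The adipokine gene Adipoq read 11.31 to 13.53 on all 6 arrays although fat had been cleared, and the lipid droplet gene Cidec read 7.85 to 11.04, both highest in control 74. Without control 74 they stood at 0.19 and 0.24. The 13 markers did not behave alike. Control 74 was the highest array in 10 of them, beside 24.6% of all genes, and control 75 in Lep, Plin4 and Aqp7. In 3 of them, Plin4 (-0.86), Aqp7 (-1.86) and Slc2a4 (-1.20), the groups did not overlap, beside 15.1% of all genes. Plin1 and Cfd are not analysed here. The brown fat uncoupling gene Ucp1 read 8.45 in control 74 and lay below the filter level on the other 5 arrays. Cidea read 9.65 in control 74 against 4.44 to 7.28 elsewhere, and Cox8b, a respiratory subunit of brown fat and striated muscle, 10.07 against 6.66 to 8.20. Of 12 brown adipocyte markers on the array 3 passed the filter, so most were dim, and Elovl3 read 5.63 to 5.84 on all 6 arrays. The other two past the filter did not follow the enzymes. Kcnk3 differed by 0.04, although control 74 was its highest array. The deiodinase Dio2 read 7.60, 9.12 and 9.10 in controls and 11.03, 9.93 and 10.46 in knockouts, higher in every knockout (1.87, SE 0.46, adjusted p = 0.0928). It was called with the adipocyte covariate (adjusted p = 0.0276), with array weights (0.0247) and with the mean of probe sets (0.0447).

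With the adipocyte mean as a covariate, the median of the members was -0.20 and 30 of 33 lay below 0, beside 54% of all genes. All 13 markers in that mean were themselves lower in knockout, with a median difference of -0.83. The covariate thus shares part of the group difference, and this fit cannot separate fat content from group. In that fit 0 members were called in either direction, beside 2.34% of all genes, and adjusted p-values ran from 0.215 to 0.969. Controls 30 and 75 lay on either side of knockouts 72 and 73 in the adipocyte mean, so the markers also varied within the controls. Other cell types differed between the arrays as well. The mean over 10 macrophage markers was 8.03 to 8.98 in controls and 9.44 to 11.45 in knockouts, with all 10 higher in knockout and 0 called, and Cd68 reached 10.67 in knockout 73. With the adipocyte covariate the macrophage marker Mrc1 was called (1.76, limma adjusted p = 0.0298). The mean over 8 smooth muscle markers was 12.00 to 12.58 in controls, lowest in control 74, and 11.79 to 12.21 in knockouts. Acta2 read 13.95 to 14.10 and Myh11 12.86 to 13.56, so the smooth muscle markers of an artery were present on all 6 arrays. Of the 8 markers 7 were lower in knockout and 0 called, with a median difference of -0.34. In 3 of them, Tagln, Myh11 and Lmod1, the groups did not overlap, beside 15.1% of all genes. Lmod1 stood at -1.20 (limma adjusted p = 0.0567) and was called without control 74 (-1.44, adjusted p = 0.0195). Endothelial markers averaged 11.23 to 11.45 in controls and 10.66 to 11.15 in knockouts. The mean over 7 adventitial fibroblast markers was 10.82 to 11.48 in controls and 11.57 to 11.67 in knockouts, with a median difference of 0.45. Of these Col1a1 rose (1.23, adjusted p = 0.0309; not called without control 75, knockout 72, knockout 73 or knockout 86, adjusted p = 0.0904, 0.112, 0.0888 and 0.118, nor with no filter, 0.0733, or without control 74 and knockout 86, 0.0883). Lum (0.83) and Pdgfra (0.75) were higher in every knockout without a call. With the adipocyte covariate Lum (1.15, limma adjusted p = 0.0389) and Pdgfra (1.12, adjusted p = 0.0181) were called. The mean over 4 striated muscle markers was 6.96 to 8.86 in controls, lowest in control 74, and 7.20 to 7.69 in knockouts. Tnnt2 varied most, at 10.76, 6.41 and 10.39 in controls and 6.64, 9.17 and 6.74 in knockouts, so control 74 was far below the other controls. Acta1 read 7.43 to 8.50, Actc1 7.75 to 8.70 and Ckm 6.16 to 7.94, with Ckm lowest in control 74 and called lower in knockout without that array (-1.27, adjusted p = 0.0464). No marker of intestinal epithelium or mesothelium passed the filter. The part of the brown fat, macrophage, endothelial, fibroblast and muscle markers in the enzyme values was not tested.

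**Figure D3:**
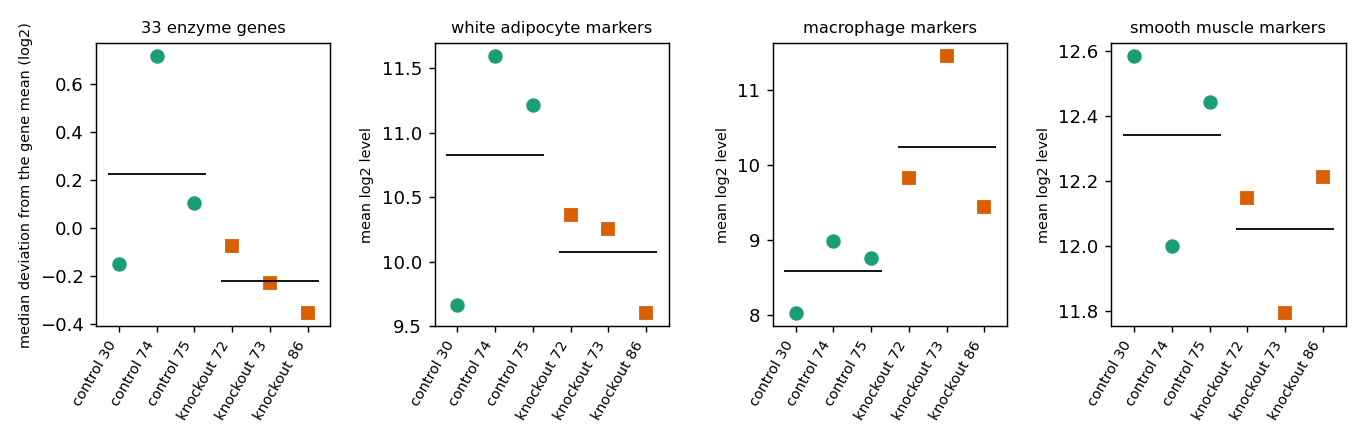
Points are the 6 arrays (circles control, squares knockout) and lines are group means; from left to right the panels give the median deviation of the 33 enzyme genes and the mean log2 level of white adipocyte, macrophage and smooth muscle markers. Enzymes and adipocyte markers are both highest in control 74, at 0.72 and 11.59, while macrophage markers are highest in knockout 73, at 11.45.

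The carnitine shuttle, which carries long fatty acids across the inner membrane, had a median difference of -0.33 over 3 genes, or -0.17 without control 74. Cpt1a, which makes acylcarnitine and is the regulated entry step, read 10.41, 9.84 and 9.64 in controls and 9.45, 9.85 and 10.30 in knockouts. The groups overlapped (-0.09, SE 0.28), and control 30 rather than control 74 was its highest array. Cpt2, which returns the chain to CoA inside, read 8.99, 10.29 and 9.56 in controls and 9.25, 9.07 and 8.83 in knockouts. Its -0.56 (SE 0.32) became -0.22 without control 74. The carrier Slc25a20 read 9.99, 10.74 and 10.56 against 10.09, 10.12 and 10.10. Control 30 lay below all 3 knockouts there, and the knockouts lay close together (SD 0.014).

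The acyl-CoA dehydrogenases open each round of beta-oxidation for chains of different length. Acadm, the medium-chain enzyme, read 11.66, 12.29 and 11.66 in controls and 11.39, 11.36 and 11.23 in knockouts. All 3 knockouts lay below all 3 controls, by -0.54 (SE 0.20, 68.6% of control, adjusted p = 0.178) and by -0.34 (SE 0.12, adjusted p = 0.179) without control 74. Acadm had the lowest adjusted p among members without control 74. Acadvl, for very long chains, read 10.23, 11.15 and 10.54 against 10.23, 10.08 and 10.06. Control 30 and knockout 72 differed only past the second decimal, so the lack of overlap between the groups is slight (-0.52, SE 0.23). Acads and Acadl, for short and long chains, differed by -0.46 and -0.37, and Acadl by -0.03 without control 74.

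The next steps hydrate, oxidise and cleave the chain. In its brightest probe set Acaa2, the mitochondrial thiolase, read 9.94, 10.81 and 10.48 in controls and 9.66, 9.83 and 9.60 in knockouts, without overlap. Its difference was -0.71 (SE 0.23, 61.0% of control, adjusted p = 0.145), and -0.51 (SE 0.19, adjusted p = 0.196) without control 74. A dimmer Acaa2 probe set stood at -0.67, also without overlap. The dimmest stood at -0.47, and there control 30 (7.08) lay below all 3 knockouts (7.13 to 7.35). With array weights, which let limma down-weight deviating arrays, Acaa2 was the 1 member called (adjusted p = 0.0384), while 1131 genes were called in all. Hadh, the 3-hydroxyacyl-CoA dehydrogenase of shorter chains, read 12.14, 12.83 and 12.51 against 12.05, 11.82 and 11.34. Its difference was -0.76 (SE 0.24, adjusted p = 0.147), and -0.59 (SE 0.25, adjusted p = 0.227) without control 74. The chosen Hadh and Hadhb probe sets carry the suffix x, which marks probes that may match similar sequences. Their probe sets without it stood at -0.72 for Hadh and at -0.50 and -0.20 for Hadhb. In that of Hadh the groups overlapped, with control 30 at 10.49 and knockout 72 at 10.62.

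Hadha and Hadhb encode both subunits of the trifunctional protein and lie side by side, as printed above. In its brightest probe set Hadhb differed by -0.40 (SE 0.18) without overlap between groups, and Hadha differed by -0.41 (SE 0.38) with overlap. The groups overlapped in the other Hadhb probe sets. There control 30 lay below knockout 72, at 11.44 against 11.46 and at 6.46 against 6.58. Control 74 exceeded the mean of the other controls by 1.37 in Hadha and by 0.53 in Hadhb. Without it Hadhb stood at -0.23 and Hadha at 0.04. Echs1, the short-chain hydratase, likewise turned from -0.37 to 0.11, with a control 74 excess of 1.42.

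Isomerases and a reductase handle unsaturated chains, and their 3 genes had a median difference of -0.70, or -0.37 without control 74. Eci1 read 9.64, 10.81 and 9.69 in controls and 9.45, 9.25 and 8.79 in knockouts, which did not overlap. Its difference was -0.88 (SE 0.34, 54.3% of control, adjusted p = 0.205), and -0.50 (SE 0.21, adjusted p = 0.238) without control 74. Eci2 read 10.11, 10.69 and 10.58 against 9.97, 10.15 and 9.81, where knockout 73 overlapped control 30. Its difference was -0.48 (SE 0.19, adjusted p = 0.204). Decr1, the dienoyl-CoA reductase, stood at -0.70 in its brighter probe set, with overlap, and at -0.32 without control 74. Its dimmer probe set stood at -0.74, without overlap.

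The peroxisomal enzymes gave both the widest and a narrow contrast. Ehhadh, the bifunctional enzyme of peroxisomal oxidation, read 5.85, 8.49 and 6.87 in controls and 6.41, 6.11 and 5.75 in knockouts. Its -0.98 (SE 0.61, adjusted p = 0.392) rested on control 74, which stood 4.38-fold above the other controls, and without that array the gene was under the filter level. Acaa1a, the peroxisomal thiolase, read 9.27, 9.62 and 9.61 against 9.42, 9.48 and 8.97 in its brighter probe set and differed by -0.21 (SE 0.18). Its dimmer probe set read 7.41, 7.73 and 7.85 against 7.39, 7.13 and 7.14, without overlap. The difference there was -0.44 (limma by probe set, adjusted p = 0.214), and control 75 was highest. Both Acaa1a probe sets carry the suffix x, so the close paralog Acaa1b could share the signal.

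The electron transfer flavoprotein and its dehydrogenase pass electrons from the acyl-CoA dehydrogenases to the respiratory chain. Etfb read 10.19, 11.15 and 10.72 in controls and 10.30, 10.16 and 9.94 in knockouts, a difference of -0.55 (SE 0.25). Etfdh read 9.69, 10.69 and 9.69 against 9.65, 9.73 and 9.60. Controls 30 and 75 were level with the knockouts, and -0.36 (SE 0.28) became -0.03 without control 74. Etfa turned from -0.28 to 0.0056.

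Pyruvate dehydrogenase showed the same dependence. Pdhb, its E1 beta subunit, read 11.30, 12.76 and 11.43 in controls and 11.63, 10.99 and 10.92 in knockouts. Knockout 72 lay above both other controls, and the difference of -0.65 (SE 0.41) became -0.18. Pdha1, the X-linked E1 alpha subunit, read 11.49, 12.67 and 11.95 against 11.84, 11.52 and 11.46, a difference of -0.43 (SE 0.30) that became -0.11. Dlat, the E2 subunit, differed by -0.67 (SE 0.48) and by -0.10 without control 74, which exceeded the other controls 3.31-fold. The median excess of control 74 was largest in this role, 1.40, and smallest in the TCA cycle, 0.43.

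The 10 TCA cycle genes had a median difference of -0.33, or -0.20 without control 74, with 9 of 10 below 0. Idh3b, a subunit of the NAD-dependent isocitrate dehydrogenase, read 11.25, 11.84 and 11.27 in controls and 11.08, 10.95 and 10.96 in knockouts. The groups did not overlap (-0.46, SE 0.18, adjusted p = 0.215), and the difference was -0.26 (SE 0.12, adjusted p = 0.261) without control 74. Fh1, the fumarase, read 10.85, 11.14 and 10.81 against 10.78, 10.46 and 10.43, again without overlap (-0.38, SE 0.16, adjusted p = 0.226). Citrate synthase Cs (-0.36, brightest probe set) and the succinyl-CoA ligase subunit Suclg1 (-0.57) did not overlap either, and neither was called. The groups overlapped in the other Cs probe sets, where knockout 72 lay above controls 30 and 75. It read 11.21 against 11.16 and 11.15, and 9.81 against 9.50 and 9.65.

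The catalytic subunit Idh3a, in its brightest probe set, read 10.08, 11.55 and 10.28 in controls and 10.77, 10.41 and 10.72 in knockouts. All 3 knockouts lay above controls 30 and 75 and below control 74. The difference was -0.01 (SE 0.38) with 6 arrays and 0.44 (SE 0.16, adjusted p = 0.184) without control 74. Idh3b and Idh3g stood at -0.46 and -0.44 with 6 arrays and at -0.26 and -0.27 without it. The other 2 Idh3a probe sets past the filter stood at -0.24 and -0.06 with 6 arrays. The first read 7.39, 8.01 and 7.53 against 7.55, 7.25 and 7.42, so its knockouts did not all lie above controls 30 and 75. In the second, which read 6.93, 7.72 and 7.06 against 7.29, 6.91 and 7.34, they did not either. Idh3a was picked out after its values were seen. Ogdh, Dlst, Sucla2 and Mdh2 lay between -0.30 and -0.18.

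**Figure D4:**
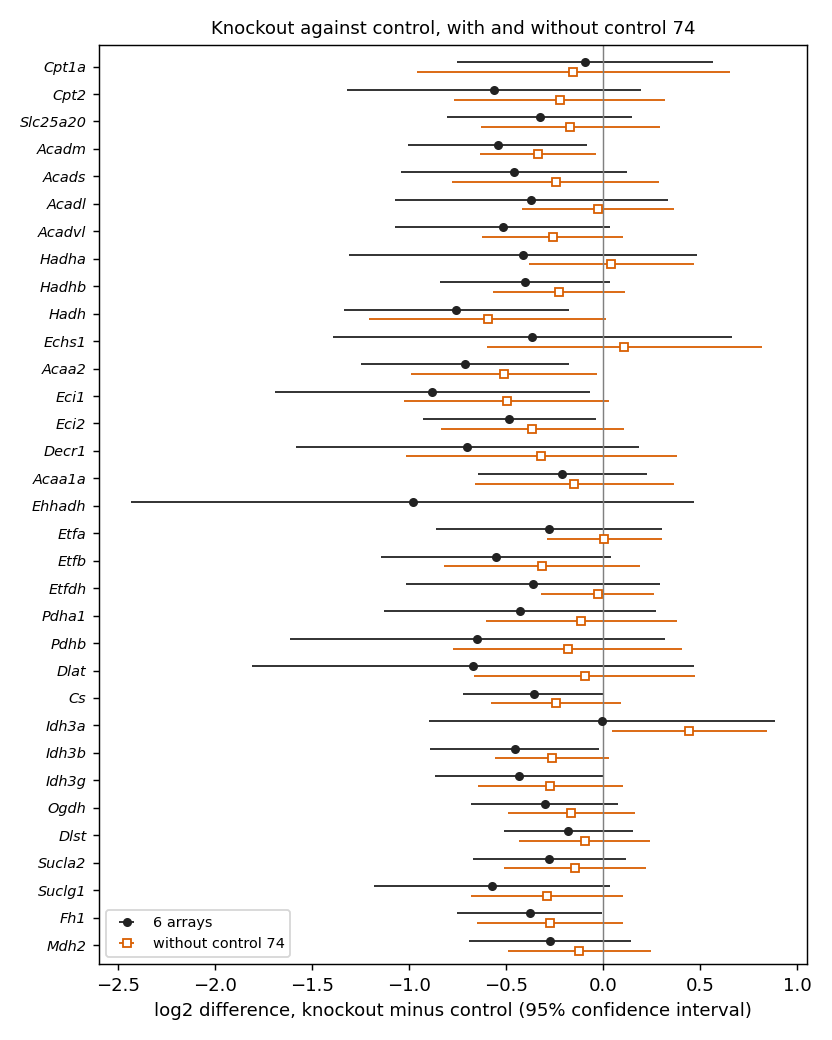
Points are the log2 difference, knockout minus control, of the 33 enzyme genes with 95% confidence intervals from limma, with 6 arrays (filled) and without control 74 (open; Ehhadh lies under the filter level there). Medians are -0.43 and -0.20, and Idh3a moves from -0.01 to 0.44.

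By probe set, 57 of the 66 passed the filter, and in all 57 the knockout mean was lower, beside 56.9% of all genes. Of the 9 under the filter, a probe set of Acadl (0.30) and 1 of Sucla2 (0.65) were higher in knockout and the others lower. Of the 57, 0 were called (lowest limma adjusted p 0.173), while 263 of 17473 probe sets were called over the whole array. Control 74 was the highest array in 51 of 57, beside 24.6% of all genes. The shares over all probe sets are not given here. In the 17 genes with several probe sets past the filter, 0 had probe sets that differed in direction, though a second Cpt1a probe set, with the suffix x, stood at -0.42.

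Around the members, Pdp2, a phosphatase that activates pyruvate dehydrogenase, fell. It read 7.79, 8.04 and 7.89 in controls and 7.12, 6.81 and 6.90 in knockouts, without overlap. The difference was -0.96 (SE 0.14, 51.2% of control, limma adjusted p = 0.0234), and control 74 exceeded the other controls by only 0.20. It was called without control 74 (-0.89, adjusted p = 0.0427) and with the adipocyte covariate (adjusted p = 0.0481). It was not called with no filter (adjusted p = 0.0598) or without control 75 (0.0862), knockout 72 (0.0828), knockout 73 (0.078) or knockout 86 (0.106). Nor was it called without control 74 and knockout 86 together (-0.87, adjusted p = 0.115). Pdp2 was the 1 gene that fell among 21 other TCA cycle and pyruvate dehydrogenase genes, of which 18 were lower, 0 rose and the median was -0.61. Without control 74 that median was -0.23, with 14 of 21 lower. Pdk2, a kinase that inactivates the complex, read 6.68, 7.94 and 7.49 against 6.04, 6.24 and 6.09 (-1.24, SE 0.30, adjusted p = 0.0902). The succinate dehydrogenase genes Sdhc (-0.65, adjusted p = 0.062) and Sdha (-0.65, adjusted p = 0.117) had no overlap, and control 74 exceeded the other controls by 0.14 in Sdhc.

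Among 18 other beta-oxidation genes 17 were lower, 0 were called and the median was -0.37, or -0.15 with 14 lower without control 74. The smallest p-values were those of malonyl-CoA decarboxylase Mlycd (-0.52, adjusted p = 0.0883), Acadsb (-0.49, 0.146), the mitochondrial acetyl-CoA carboxylase Acacb (-1.44, 0.196, and -0.84 without control 74) and Decr2 (-0.42, 0.295). Of 12 fatty acid uptake and activation genes 8 were lower (7 without control 74) and 0 called, with the acyl-CoA synthetase Acsl4 at 0.34, the carnitine transporter Slc22a5 at -0.34, Dbi at -0.42 and Slc27a1 at -1.16 (-0.58 without control 74). All 11 genes of ketone and branched-chain amino acid oxidation were lower and 0 called, and 9 were lower without control 74, where their median went from -0.66 to -0.34. The smallest p-values were those of isovaleryl-CoA dehydrogenase Ivd (-0.97, adjusted p = 0.0796), Pcca (-0.76, and -0.50 without control 74), Bckdha (-0.83) and Mccc2 (-0.83). Of 10 PPAR targets, which include Slc25a20 and Ehhadh, 9 were lower and 0 called, and 7 of the 8 tested without control 74 were lower, with medians of -0.82 and -0.55. The thioesterase Acot2 stood at -1.08 (adjusted p = 0.117), Acot13 at -0.59, Acot1 at -0.91 and the droplet protein gene Plin5 at -1.001.

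Of 12 transcriptional regulators 9 were lower, 0 were called and the median was -0.13, or -0.06 with 7 lower without control 74. The coactivator Ppargc1b, PGC-1beta, read 9.51, 9.70 and 9.67 in controls and 8.79, 8.70 and 7.31 in knockouts. The groups did not overlap, and knockout 86 lay apart from the other knockouts (-1.36, SE 0.38, adjusted p = 0.12). Control 74 exceeded the mean of the other controls by 0.11 there. The related Pprc1 lay higher in every knockout (0.63, adjusted p = 0.152), Rxra stood at -0.39 (adjusted p = 0.145) and Nrf1 at -0.19. Ppargc1a, PGC-1alpha, was under the filter level in all 5 of its probe sets. It was singled out after the probe sets of 7 genes near or under that level had been looked at. All 3 knockouts lay below all 3 controls in 5 of 5 probe sets, beside 11.1% of all probe sets, at 40.2% to 49.1% of control. In a fit by probe set with no filter, 200 of 34945 probe sets were called, 17 of them lower, and Ppargc1a in 1 of 5. That probe set has the suffix x, and read 6.88, 6.72 and 6.83 in controls and 5.58, 5.53 and 5.38 in knockouts. It fell by 1.31 on the log2 scale (SE 0.15, adjusted p = 0.0294), while the highest adjusted p of the 5 was 0.173. Without control 74, 0 of 5 were called (adjusted p = 0.0927 to 0.269), and over the 6 fits of 5 arrays the adjusted p ran from 0.0902 to 0.383. With the adipocyte covariate it ran from 0.107 to 0.246.

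**Figure D5:**
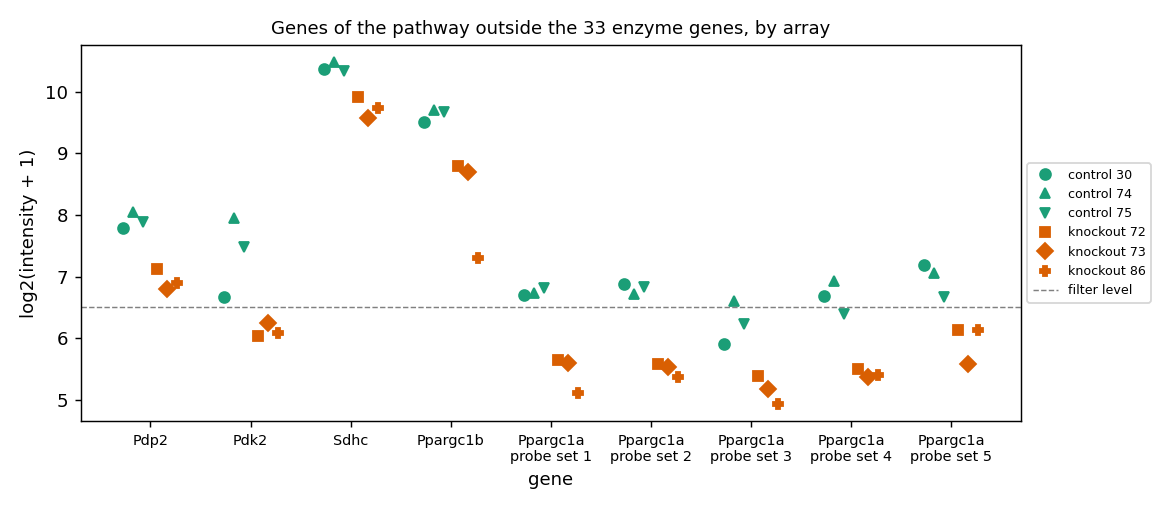
Points are log2(intensity + 1) on each of 6 arrays for Pdp2, Pdk2, Sdhc, Ppargc1b and the 5 probe sets of Ppargc1a, and the dashed line is the filter level of 6.50. In each the 3 knockouts lie below the 3 controls, and control 74 stands near the other controls in Sdhc (10.48 against 10.37 and 10.33).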

How the data were processed

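Per the labels' protocols, biotin-labelled total RNA of each mouse was measured on its own microarray, with 3 arrays a group. The authors deposited a linear intensity for each of 45037 probe sets. Their probe summary and array scaling are not given in the sources used here, and no detection calls were used. Median intensities lay between 62.8 and 72.6 per array. Symbols came from the platform annotation, in which 34945 probe sets have 1 symbol.

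From these intensities log2(intensity + 1) was computed and quantile normalized. Probe sets with a mean under the median of the single-symbol probe sets, 6.50, were left out. A first pass had taken that median over all probe sets (6.10); it is kept as an alternative chosen after seeing the data. The probe set with the highest mean stood for a gene. Groups were compared with limma 3.58.1 (lmFit, eBayes, 2-sided) in R 4.3.3, with Benjamini-Hochberg adjustment over 10654 genes and a threshold of 0.05. The code was tested on simulated data.

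The members and lists were chosen with earlier results of these data known. Values on each array are given for the 2 members of each role with the smallest p, and context lists by their 4 smallest p-values. Genes given array values beyond these (Cpt1a, Idh3a, Ppargc1a, Cox8b, Dio2, Tnnt2) were chosen after their values were seen. So were the markers Kcnk3, Elovl3, Actc1, Col1a1, Lum, Pdgfra, Mrc1, Lmod1, Lep, Plin4, Aqp7 and Slc2a4. Promoter windows and gene identifiers came from RefSeq tables of GRCm38.p6. Alternatives were no filter, a 70th percentile filter, the mean of probe sets, a test by probe set, median centring, no normalization, array weights, a pseudocount of 16, the adipocyte covariate, a trended and robust prior and each array left out. Leaving out control 74 and knockout 86 together, and a fit of Ppargc1a with no filter, were added after seeing the data.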

Additional observations from a re-analysis of the deposited data

How the results depend on the processing

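The count of 0 members past the limma threshold and the sign of their median held in every alternative run, except that array weights called Acaa2, 1 member (adjusted p = 0.0384). The member median lay between -0.65 (without control 30) and -0.20 (without control 74) with 1 array left out, was -0.26 with array weights, -0.20 with the adipocyte covariate and -0.16 with control 74 and knockout 86 both left out (26 of 32 below 0), and was -0.52 to -0.42 in the other settings. Genes past the threshold numbered 258, against 141 with the 70th percentile filter, 1131 with array weights, 39 without control 74 and knockout 86, 299 with the filter level over all probe sets (members called 0) and 37 to 286 with 1 array left out. Itgb1 stood at -0.78 with array weights and -1.02 with the adipocyte covariate, both past the threshold. With array weights Echs1 (0.10) and Idh3a (0.31) lay above 0. With the adipocyte covariate Hadha (0.031), Echs1 (0.19) and Idh3a (0.35) did. Without control 74 and knockout 86, Hadha (0.12), Echs1 (0.34), Acaa1a (0.011), Etfa (0.045), Etfdh (0.00089) and Idh3a (0.40) did. With 1 array left out, Cpt1a ran from -0.31 to 0.13, Hadha from -0.74 to 0.042, Echs1 from -0.71 to 0.11, Etfa from -0.44 to 0.0056 and Idh3a from -0.28 to 0.44. The cause of these moves was not tested. No paired analysis was possible because the groups share no animal numbers. Not having detection calls, the arrays set no limit on the dim probe sets of Ppargc1a other than the filter level of 6.50.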
